A study of Mus musculus with 2 samples.

Results

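Broad, strong peaks of histone H3 lysine 27 acetylation (H3K27ac) that were called in sorted chamber cells of the embryonic mouse heart, with no peak called nearby in the atrioventricular canal (AVC), numbered 1014. They were taken from the 67092 peaks of the chamber list, of which 66142 lay on the 19 autosomes. A peak was a member when its signal value was at least 47, the value of the 10000th autosomal chamber peak, when it was at least 500 bp wide, and when no AVC peak overlapped it or lay within 1 kb. The signal value is a whole number that the authors deposited for each peak without naming it. It may count the reads of a peak or give the height of its read pile-up.

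The data came from 2 ChIP-seq libraries of FVB/N embryos at stage E10.5, in mid-gestation, both with the genotype Katushka+ EGFP+. Chamber cells were sorted by the far-red protein Katushka and AVC cells by the green protein EGFP, and both libraries were made with the same H3K27ac antibody. What drives each fluorescent protein, how many embryos were pooled and which cell types each gate held are not given in the sources used here, and no marker gene could be checked because no mm9 annotation was used. The track names carry an unexplained mark, 3x, and whether it stands for pooled samples is not stated. Each tissue had 1 library, so no difference below has a replicate check, no test between tissues was made, and intervals are exact Clopper-Pearson 95% intervals that cover counting error only. Sequencing depth is unknown, and the signal values of the lists were not scaled to each other.

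H3K27ac is placed by the acetyltransferases p300 and CBP on nucleosomes that flank active promoters and enhancers, and it is widely used to find enhancers that are active in one tissue and not in its neighbour. Atrial and ventricular chamber muscle expands, contracts strongly and conducts fast. The canal between them keeps slow conduction and a less differentiated muscle, in part through the repressors Tbx2 and Tbx3, and it induces the cushions from which valves form.

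Members were chosen by their signal, their width and the lack of a nearby AVC peak, so these values are a description. Members had a median signal of 56 (interquartile range 51 to 67, highest 145) and a median width of 621 bp (561 to 718, widest 1257). The deposited score, the caller's Log(ER), an enrichment measure set within each chromosome, had a median of 7.25 and ran from 5.45 to 20.81. Over all autosomal chamber peaks the median signal was 29, the median width 326 bp and the median score 2.81. At the edge of the rule, 71 members had a signal of exactly 47, and 45 peaks that met the other conditions had a signal of 46. Examples just inside were chr9:29751228-29751736 (score 5.49) and 4 peaks on chromosome 18 (score 5.45), and just outside were 4 peaks on chromosome 7 (score 5.86) and chr4:149815891-149816504 (5.56). The lowest score at a signal of 47 or more ran from 5.45 on chromosome 18 to 6.04 on chromosome 7, because scores follow each chromosome's own scale.

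The other high-signal broad chamber peaks, those with an AVC peak overlapping or within 1 kb, are called partnered peaks here and numbered 4212. Of these, 3612 overlapped an AVC peak and 600 only had one beside them. Members therefore made up 19.4% (18.3 to 20.5) of 5226 high-signal broad chamber peaks. The share without an AVC peak within 1 kb was 52.3% among all autosomal chamber peaks, 46.9% (45.3 to 48.5) among 3633 broad peaks below the signal threshold, and 12.1% (11.2 to 13.1) among 4827 high-signal peaks under 500 bp. Single bases within 1 kb of an AVC peak made up 193 Mb, or 7.82% of the autosomal span. That is a share of bases with an AVC peak near, whereas the shares above are of whole peaks without one.

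Members were the weaker part of the high-signal broad peaks. Their signal per 100 bp of width had a median of 9.24, against 10.4 in partnered peaks, whose median signal was 69 and median width 661 bp. Of the 1000 strongest autosomal chamber peaks, 154 were at least 500 bp wide, and all of these were partnered peaks. The rest of the 1000 were narrower, so the rule barred them from being members. The first 2000 held 15 members and 605 partnered peaks, and the first 5000 held 297 and 2460. The strongest member ranked 1207th.

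**Figure D1:**
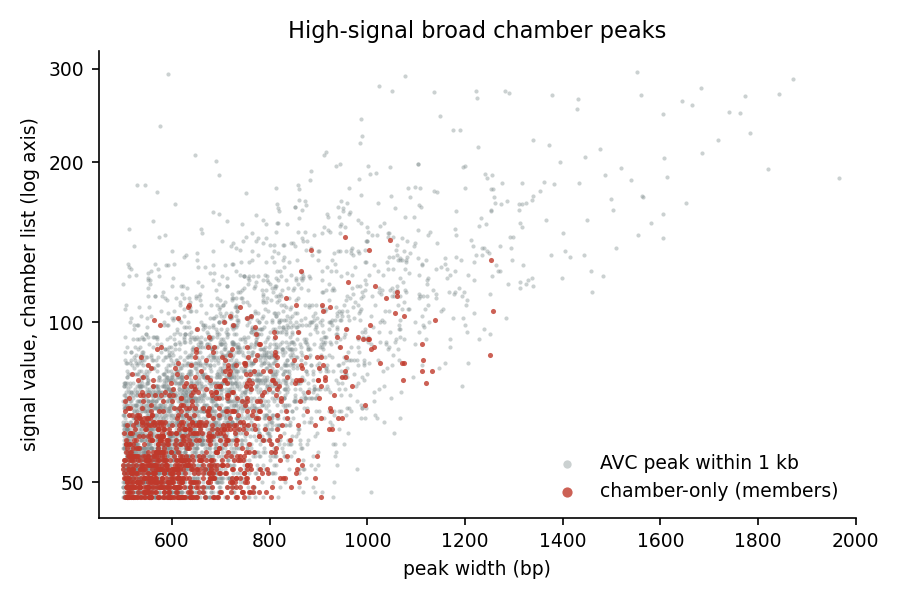
Signal value (vertical, log axis) against width in bp (horizontal) of each high-signal broad chamber peak, red for the 1014 members and grey for partnered peaks; 33 partnered peaks with a signal above 300 or a width above 2000 bp are outside the plot. Members crowd the lower left corner and reach a signal of 145 and a width of 1257 bp.

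The share of members fell steadily with signal. At signals from 47 to 49 it was 34.5% (30.4 to 38.8), from 50 to 59 28.7% (26.3 to 31.1), from 60 to 79 18.7% (16.9 to 20.7), from 80 to 99 10.4% (8.35 to 12.7), and at 100 or more 3.69% (2.48 to 5.26), which was 29 of 786 peaks. The share also fell with width, from 23.0% at 500 to 599 bp to 7.03% (4.64 to 10.1) at 1000 bp or more. At nearly equal signal, from 50 to 59, it had no such course. There it was 26.9% (23.8 to 30.2) at 500 to 599 bp, 30.9% (26.6 to 35.5) at 600 to 699 bp, 33.6% (26.1 to 41.7) at 700 to 799 bp and 23.5% (14.1 to 35.4) at 800 to 999 bp.

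The mirrored rule on the AVC list, whose 10000th signal value was also 47, gave 2175 AVC-only peaks, 34% of 6399. Among all 86942 autosomal AVC peaks, 67.2% had no chamber peak within 1 kb. The AVC-only peaks were wider than members, with a median of 755 bp, and had a lower median signal of 52. Their share fell more steeply with signal, from 51.8% (49.2 to 54.4) at 47 to 49 to 2.95% (1.42 to 5.36) at 100 or more. The intervals of the lists were apart in the classes from 47 to 49 and from 50 to 59, and overlapped in each class from 60 upward. They cover counting error over peaks of 1 library per tissue, and the lists differ in length. Their separation is therefore no test between the tissues. Equal signal values need not mark equal enrichment in the 2 lists. Both groups began at a signal of 47, and their lowest scores were 4.46 for AVC-only peaks and 5.45 for members. Scores are set within each chromosome, and whether they can be compared between the lists was not tested.

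**Figure D2:**
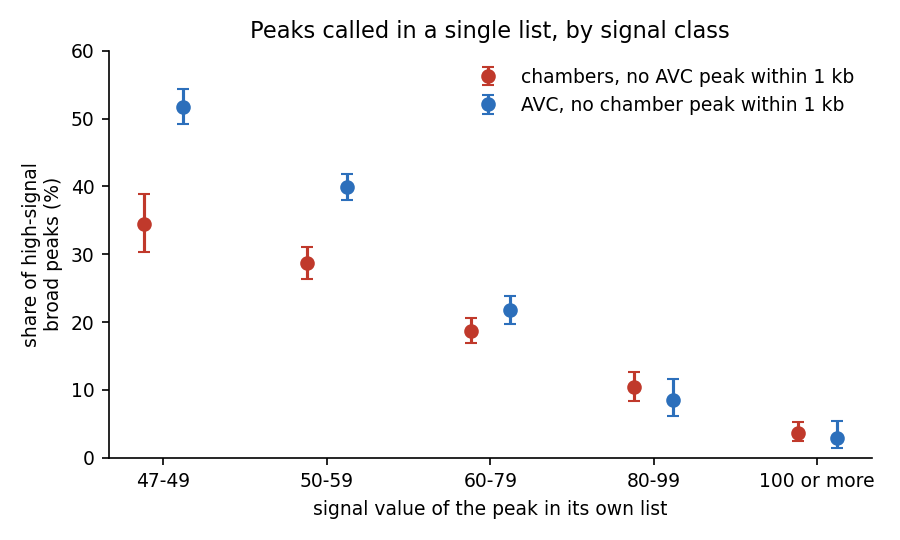
Share of high-signal broad peaks with no peak of the other list within 1 kb (vertical, %) by signal class (horizontal), red for chambers and blue for the AVC, with exact 95% intervals as bars. Both shares fall with signal, from 34.5% and 51.8% in the lowest class to 3.69% and 2.95% in the highest.

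The 20 members of highest signal had values from 105 to 145, and 13 of the 19 autosomes held at least 1 of them. The strongest, chr4:45025620-45026574, had a signal of 145 over 955 bp (score 20.74), and an AVC peak of signal 33 lay 1.23 kb away. It had 7 other chamber peaks and 8 AVC peaks between 1 and 50 kb, so it lay among peaks of both lists. The second, chr14:17075951-17076996, had a signal of 143, and its nearest AVC peak was 15.4 kb away. Only 2 chamber and 3 AVC peaks lay between 1 and 50 kb of it. On chromosome 2, chr2:10000864-10001748 had a signal of 137 and 3 chamber and 4 AVC peaks in that range. On chromosome 3, chr3:32294807-32295810 had the same signal of 137, and there 6 chamber peaks stood against 1 AVC peak.

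The fifth, chr2:17960099-17961351, had a signal of 131 and lay in the densest setting of the 20. Between 1 and 10 kb from it there were 18 chamber and 10 AVC peaks, and between 1 and 50 kb 33 and 21. Its width of 1253 bp was the second largest of all members. A second member lay 206 bp away, and they belonged to a run of 3 members between 17960099 and 17963961 that held 5 chamber peaks and no AVC peak.

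Other strong members differed in how close AVC acetylation was called. An AVC peak lay 1.03 kb from chr2:56969168-56970032 (signal 125) and 1.44 kb from chr17:17759976-17760898 (107). The distance was 60.2 kb for chr1:157820508-157821568 (112), 38.2 kb for chr7:123476578-123477431 (108) and 36.5 kb for chr15:3946197-3946828 (107). The peak chr5:120254981-120255995 (117) had 28 chamber and 10 AVC peaks between 1 and 50 kb, and chr11:69713908-69715164 (105), the widest member at 1257 bp, had 10 and 1. At chr13:22005491-22006551 (114) the nearest AVC peak, 3.22 kb away, was 95 bp wide with a signal of 653 and a score of 23.93. For the other 19 the nearest AVC peak had a signal between 25 and 51. Among the 5 widest were also chr7:106274807-106276057 (1251 bp, signal 87) and chr10:57218530-57219667 (1138 bp, 101).

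Most members had an AVC peak in the same neighbourhood. The median distance to the nearest one was 5.57 kb (interquartile range 2.46 to 13.1). For 217 members it was under 2 kb, for 249 between 2 and 5 kb, and for 222 between 5 and 10 kb. No AVC peak lay within 10 kb of 326 members (32.1%, 29.3 to 35.1), within 50 kb of 33 (3.25%, 2.25 to 4.54) and within 100 kb of 8 (0.789%). Counted from 1 kb outward, so without their AVC partner, partnered peaks had none within 10 kb in 22.3% (21.1 to 23.6), within 50 kb in 2.42% (1.98 to 2.93) and within 100 kb in 0.522% (0.328 to 0.790). The interval of the members lay above at 10 kb and overlapped at 50 and 100 kb. The rule split these groups by the AVC peaks within 1 kb, and its part in the difference at 10 kb was not tested. The 2175 AVC-only peaks of the mirrored rule lay farther from the chamber list, at a median of 9.285 kb. Of these, 47.6% (45.5 to 49.8) had no chamber peak within 10 kb. The chamber list is the shorter one, with 66142 autosomal peaks against 86942, and the part of list length in these distances was not tested.

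**Figure D3:**
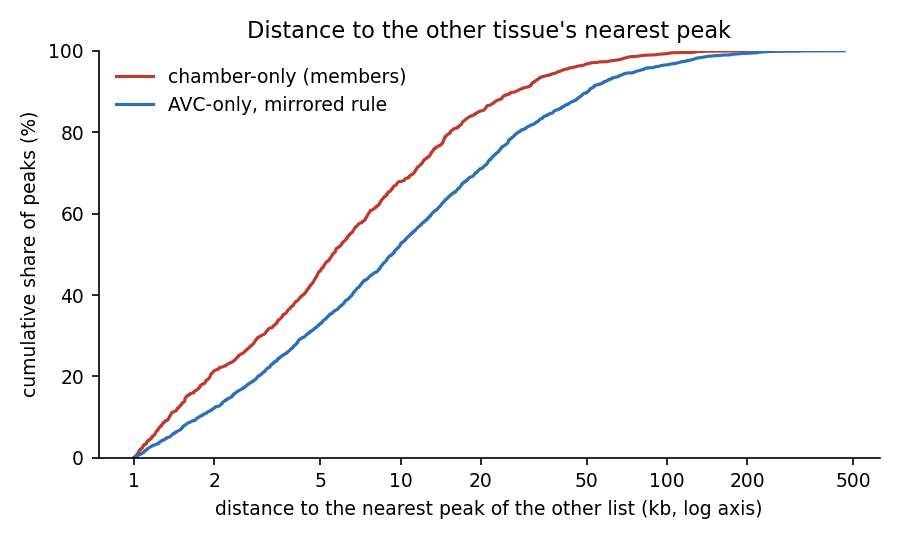
Cumulative share of peaks (vertical, %) by distance to the nearest peak of the other list (horizontal, kb, log axis), red for the 1014 members against the AVC list and blue for the 2175 AVC-only peaks against the chamber list. Both curves start at 1 kb by the rule, and the medians are 5.57 and 9.285 kb.

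The AVC peaks nearest to members were close to their whole list in median size. They had a median signal of 32, a median score of 2.70 and a median width of 482 bp, against 31, 2.62 and 472 bp over all autosomal AVC peaks. A score of 5 or more was somewhat commoner among them, at 122 (12.03%, 10.1 to 14.2), against 9.77% of all autosomal AVC peaks. A high-signal broad AVC peak lay within 10 kb of 176 members (17.4%, 15.1 to 19.8) and within 50 kb of 457 (45.1%, 42.0 to 48.2). These shares were not computed for partnered peaks, so whether they are high or low for such surroundings cannot be read from them.

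The 5 members farthest from any AVC peak were at distances of 124 kb or more. They were chr19:12648067-12648770 at 222 kb, chr8:91559718-91560294 at 144 kb, chr17:22560380-22561123 at 129 kb, chr2:150136916-150137478 at 128 kb and chr9:21807423-21808378 at 124 kb. Their signals were between 58 and 97. Between 1 and 50 kb the chromosome 8 member had 6 chamber peaks, the median of all members, the chromosome 19 member had 1, and the other 3 had none. Of the 33 members with no AVC peak within 50 kb, 3 had 5 or more chamber peaks in that range.

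The AVC list gives no value at the members, so their signal was set against the lowest value called there. The lowest signal called on an autosome of the AVC list ran from 24 to 27. Members had 1.74 to 5.72 times that value for their own chromosome, with a median of 2.15. This is a ratio of unscaled values, and whether the caller lists every region above the lowest value is not stated. In sorted bulk cells, fewer cells carrying the mark and less acetylation per cell cannot be told apart. At the 3612 partnered peaks that overlapped an AVC peak, the ratio of the chamber signal to the highest overlapping AVC signal had a median of 1.61 (interquartile range 1.20 to 2.08). In 815 of these it was at or above 2.15, the members' median. Within the class from 60 to 79, 70 of 1192 overlapping peaks reached the members' median of 2.52. At signals of 100 or more, 26 of 732 reached 4.12. An overlapping AVC peak cannot fall below the lowest signal called on its chromosome. Its ratio is therefore capped at the chamber signal over that value, so these counts were limited in advance. They do not show a stronger chamber bias of members.

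**Figure D4:**
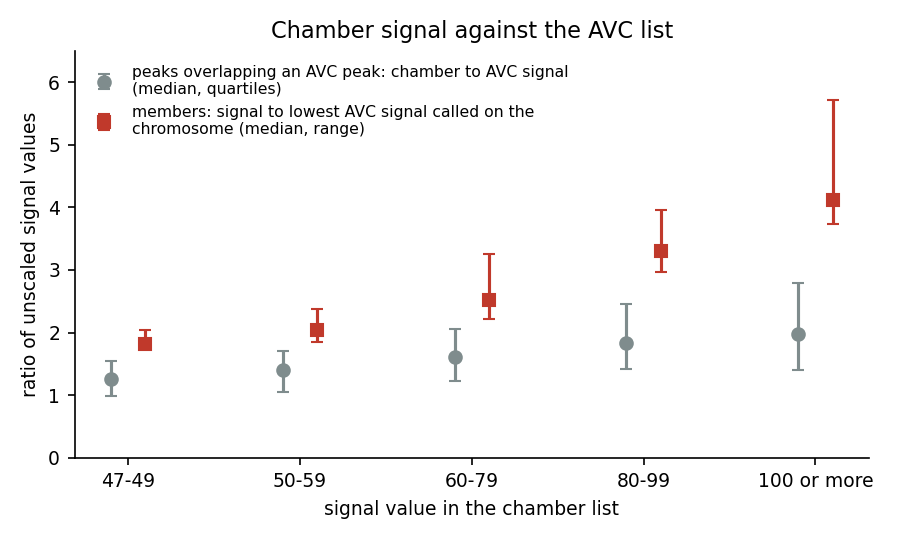
Ratio of unscaled signal values (vertical) by chamber signal class (horizontal); grey circles give the chamber-to-AVC ratio at overlapping partnered peaks with quartiles, and red squares the members' signal over the lowest AVC signal called on the chromosome, median with range. In the highest class the medians are 1.98 and 4.12. The red values follow from the rule and are set by the member's own signal. No grey ratio can exceed its peak's signal over the lowest AVC signal called on the chromosome.

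Many members were not isolated blocks of acetylation. Another chamber peak lay within 1 kb of 453 members (44.7%, 41.6 to 47.8), at a median gap of 280 bp. This flanking peak had a median width of 357 bp and a median signal of 32, near the 326 bp and 29 of all autosomal chamber peaks. It was weaker than the member in 415 of the 453 cases (91.6%), and on average 90.5% of all autosomal chamber peaks were weaker than these members, which were chosen for high signal. Among partnered peaks such a neighbour was commoner, at 74.5% (73.1 to 75.8).

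When chamber peaks at most 1 kb apart were joined into domains, the 1014 members fell into 980 domains. Of these, 561 (57.2%, 54.1 to 60.4) consisted of the member alone, 238 held 2 peaks and 181 held 3 or more. The median span was 785 bp, and the longest was 13691 bp with 15 peaks. Of the 3380 domains with a partnered peak and no member, 31.8% (30.3 to 33.4) were single peaks, and their median span was 1504 bp. A member alone is free of AVC peaks by the rule. Of the 419 member domains with 2 or more peaks, 93 (22.2%, 18.3 to 26.5) had an AVC peak within 1 kb of some other chamber peak of the domain. This share was not computed for domains without a member, so it has no comparison here.

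The surroundings of members were rich in peaks of both lists. Between 1 and 5 kb from a member there were 145 chamber peaks per Mb, 5.41 times the mean of the list, and 96.2 AVC peaks per Mb, 2.73 times its mean. Between 50 and 100 kb the densities were 57.0 and 58.2 per Mb, still 2.13 and 1.65 times the means. Around partnered peaks all densities were higher, at 236 chamber and 183 AVC peaks per Mb from 1 to 5 kb. Around the AVC-only peaks of the mirrored rule the order of the lists was the other way round, with 69.4 chamber and 111 AVC peaks per Mb.

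**Figure D5:**
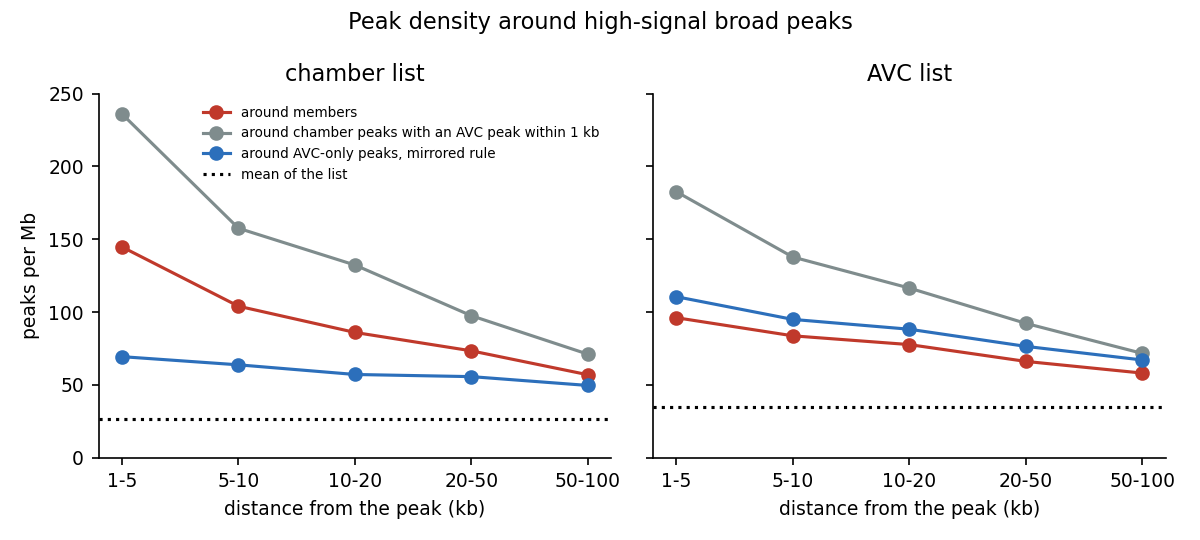
Density of chamber peaks (left) and AVC peaks (right) per Mb (vertical) by distance from a region in kb (horizontal), around members (red), partnered peaks (grey) and AVC-only peaks of the mirrored rule (blue), with the mean of the list dotted. Members lie between the other groups in the chamber list, at 145 per Mb from 1 to 5 kb, and lowest in the AVC list, at 96.2 per Mb.

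The balance of the lists around members was close to that around partnered peaks. Between 1 and 100 kb, summed over regions, there were 1.08 chamber peaks for each AVC peak around members and 1.07 around partnered peaks, against 0.714 around the AVC-only peaks and 0.761 for the autosomal lists as a whole. Between 1 and 10 kb the values were 1.37, 1.22 and 0.651. At 100 kb, chamber peaks outnumbered AVC peaks around 519 members (51.2%) and AVC peaks outnumbered chamber peaks around 418 (41.2%). Among partnered peaks these shares were 52.2% and 41.1%. For the 29 members with a signal of 100 or more the ratio at 100 kb was 1.24, and for partnered peaks of that class 1.13.

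Single members departed from this balance, and those that follow were chosen after their values were seen. At least 10 more chamber than AVC peaks lay between 1 and 50 kb of 48 members (4.73%, 3.51 to 6.23), and 7.74% of partnered peaks had such a surplus. The greatest was at chr11:69185518-69186114, with 28 chamber and 7 AVC peaks. It was followed by chr19:40550778-40551344 with 42 and 23, chr5:120247032-120247575 with 29 and 10, chr2:44922666-44923439 with 42 and 24, and chr6:30488612-30489221 with 30 and 12. A surplus of at least 10 AVC peaks was found around 9 members (0.888%, 0.407 to 1.68) and around 2.23% (1.81 to 2.72) of partnered peaks. Examples were chr17:7373183-7373824 with 5 chamber and 18 AVC peaks, chr17:75393736-75394369 with 9 and 22, and chr1:34161530-34162100 with 8 and 21.

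A further member lay within 50 kb of 201 members (19.8%, 17.4 to 22.4), and a member lay within 50 kb of 16.2% (15.1 to 17.4) of partnered peaks. A partnered peak lay within 50 kb of 387 members (38.2%, 35.2 to 41.2). A further partnered peak lay within 50 kb of 61.1% (59.6 to 62.6) of partnered peaks, which are the more numerous group. An AVC-only peak of the mirrored rule lay within 50 kb of 158 members (15.6%, 13.4 to 18.0) and of 18.0% (16.8 to 19.2) of partnered peaks. Chained at 50 kb, the members formed 813 singles, 76 pairs, 11 runs of 3 and 4 runs of 4.

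The run of 4 with the highest summed signal lay on chromosome 6 within 3.04 kb, from 53235766 to 53238803. Its members had signals of 69, 66, 66 and 64 and widths of 697, 552, 718 and 582 bp, with gaps of 51, 157 and 281 bp between them, and no AVC peak was called between its ends. The nearest AVC peak, of signal 33, was 4.03 kb from the first member. The signals of these 4 neighbours were close to each other, and as neighbours of 1 stretch they are not independent.

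A second run of 4, on chromosome 11 from 77181133 to 77228299, was made of 2 close pairs with signals of 68 and 76, and of 61 and 58. It held 11 chamber and 4 AVC peaks, and 1 of the AVC peaks was itself an AVC-only peak of the mirrored rule. The third, on chromosome 11 from 69137505 to 69209254, spanned 71.8 kb with 13 chamber peaks and 2 AVC peaks. Its members had signals of 61, 69, 47 and 55. The fourth run of 4, on chromosome 5 from 136364269 to 136433345, tied with it in summed signal, at 232.

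Members occurred on every autosome. Their number ran from 32 on chromosomes 12 and 19 to 97 on chromosome 2, and their density from 0.264 per Mb on chromosome 12 to 0.699 on chromosome 11. As a share of high-signal broad chamber peaks they ranged from 11.0% (8.03 to 14.7) on chromosome 7 to 25.8% (21.0 to 31.0) on chromosome 1. Of the 18 other autosomes, 10, with shares from 18.2% to 25.8%, had an interval wholly above that of chromosome 7. Chromosome 7 was picked for its lowest share after the shares were seen, and neighbouring peaks are not independent. The comparison is therefore a description and not a test. The lowest AVC signal called was 24 on chromosome 7 and 25 to 27 on the other autosomes, and its part in the low share was not tested.

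Chromosome 11 was dense in high-signal broad chamber peaks of both kinds, with 3.14 partnered peaks per Mb, so its member share of 18.2% (14.8 to 22.0) was near that of the genome. It had 0.810 members for each AVC-only peak of the mirrored rule, and chromosome 7 had 0.295. Across the 19 autosomes, gene density (protein-coding genes per Mb) and peak density had a Spearman rho of 0.33 for members, 0.55 for partnered peaks and -0.06 for AVC-only peaks. Pearson's r was 0.41, 0.74 and -0.02, and without the 2 chromosomes farthest from the median gene density it was 0.51, 0.57 and -0.06. Gene numbers are from GRCm38, chromosome lengths are the last peak position in mm9, chromosomes are not replicates, and all points share the same libraries.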

How the data were processed

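H3K27ac ChIP-seq peak lists of 1 chamber and 1 AVC library were used. Per the file headers, OccuPeak 1.3 called peaks per chromosome in each library at a Log(ER) above 2, taking reads as 50 bp and fragments as 68 bp (chambers) or 60.5 bp (AVC). Bowtie, SAMtools and the build mm9 appear in the submitters' processing notes, without versions. The signal is a whole number per peak that the authors deposited unscaled. The score is the deposited Log(ER), of unstated base. The sources used here do not say whether a control library was used.

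Chromosomes X, Y and M were left out. Distances are the bases between peak edges, checked on planted peaks and with bedtools 2.31.1, which also gave 1014 members. Positions are mm9, 1-based. Counts of surrounding peaks start at 1 kb from the edge. Shares carry exact 95% intervals. Members named are the 20 of highest signal, the 3 largest runs, the 5 widest, the 5 farthest from an AVC peak and those at the threshold; some of the widest and threshold peaks are given by chromosome or left to the summary. The members, classes and lists were chosen with earlier results of these data known. Planned gene and motif analyses were not run, since no mm9 genome or annotation was used here, and no coordinates were converted. Scripts ran under Python 3.11.15 with scipy 1.17.1, pandas 2.3.3, numpy 2.4.6 and matplotlib 3.10.9.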

Additional observations from a re-analysis of the deposited data

Results flagged for a closer look

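Chromosome X was outside the rule. There, 38 chamber peaks passed the same signal and width thresholds, and 10 of them had no AVC peak within 1 kb. The comparisons above do not use them. On the autosomes the share was 19.4%, or 1014 of 5226. On the AVC list 17 peaks of chromosome X passed, and 7 had no chamber peak within 1 kb. The autosomal share of the AVC list was 34%, or 2175 of 6399. Both chromosome X counts are small, and no difference from the autosomes is read from them.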

How the results depend on the processing

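The number of members followed the thresholds that define them. From 1014 (19.4% of high-signal broad peaks), it went to 297 (10.8%) with the threshold at the 5000th peak and to 1906 (25.8%) at the 20000th. With a minimum width of 300 bp it was 1557 and with 1000 bp 26 (7.03%). With overlap alone counted as AVC signal it was 1614 (30.9%), with AVC peaks within 5 kb counted 548 (10.49%), and within 10 kb 326 (6.24%). With only AVC peaks at or above the median score counted it was 1559 (29.8%). Ranking by score in place of signal gave 994 peaks (19.2%), of which 989 were members. The share at 300 bp, 20.3%, stayed within the interval of the share reported. A further chamber peak lay within 5 kb of 72.4% of members, within 10 kb of 83.3% and within 50 kb of 96.9%. For partnered peaks these shares were higher, at 88.4%, 92.6% and 99.1%. A further member lay within 20 kb of 13.8% of members and within 100 kb of 27.0%. For partnered peaks, a member lay within 20 kb of 8.86% and within 100 kb of 24.6%. Promoter and motif alternatives were not run, for want of an mm9 reference here. No paired analysis was possible because there is a single library in each tissue. With depth unknown and 1 library per tissue, a missing AVC peak does not show that acetylation was absent there.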
